A study of Drosophila melanogaster with 46 samples.

Results

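Small RNAs bound by Piwi were compared with the small RNAs of the same cell type, transposable element (TE) by TE and strand by strand. Of the 46 samples of the series, 4 are described here: 2 small RNA libraries from a Piwi immunoprecipitate (Piwi-IP) and 2 small RNA libraries of input. All came from OSC (ovarian somatic cells), a cultured Drosophila melanogaster line of follicle cell origin that has no germ cells. The labels give the genotype of the input as none and that of the immunoprecipitate as Piwi-IP, and they name total RNA as the molecule of both. A treatment protocol shared by all samples of the series describes siRNA transfection, but no siRNA is named for these 4 libraries. The antibody is not given in the sources used here, and a mock precipitate was not analysed here. The comparison covers every TE of the deposited table on both strands, with each value in RPM, the reads of a TE scaled to a library total of 1000000 reads. It asks which TE small RNAs sit in Piwi, set against their level in the cells. The table names some TEs by a number alone; these are described in words, and those drawn in a plot carry their name there.

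Piwi is a nuclear Argonaute protein that carries piRNAs, a class of small RNAs somewhat longer than siRNAs. A piRNA antisense to a TE can pair with that TE's nascent transcript, and Piwi then brings about transcriptional silencing and heterochromatin. In follicle cells most piRNAs come from unistrand clusters, of which flamenco is the best known, a locus filled with remnants of gypsy, ZAM, Idefix and related retroelements lying antisense to its transcription. These cells lack the ping-pong cycle of the germline, in which sense and antisense piRNAs amplify each other. The gypsy-group errantiviruses, LTR retrotransposons of which many carry an envelope gene, are the main targets of this somatic pathway. An input of small RNAs also holds siRNAs and fragments of longer RNAs, which other proteins or none may carry.

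The libraries were scaled to totals of 18861900 and 15327200 reads in input and 15064800 and 12493500 reads in Piwi-IP. With a floor of 3 reads, a TE listed at 0 can have a level of up to 0.159 and 0.196 RPM in input and 0.199 and 0.240 RPM in Piwi-IP. The labels do not say whether separate cultures were used for replicate libraries, so the p-values measure only the spread between libraries, which may be technical. For a single value, the exact permutation test of 2 libraries against 2 cannot go below p = 0.333. The treatment of reads that match several TEs is not given in the sources, and related elements may therefore share reads. The table holds no genes, so cell type markers could not be read from it. The 20 TEs listed here as mainly germline elements, such as the I-element, HeT-A and hobo, took 3.76% and 3.74% of the antisense sum in input and 3.86% and 3.87% in Piwi-IP. Of the much smaller sense sum they took 21.0% and 21.5% in input and 20.4% and 21.6% in Piwi-IP.

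TE small RNAs made up 22.4% of the reads in both input libraries, and 25.2% and 24.9% in the Piwi-IP libraries. The antisense sum was 211663 and 211337 RPM in input against 238542 and 236313 RPM in Piwi-IP, a difference of means of 0.17 on the log2 scale. The sense sum was 12200.7 and 12371.3 RPM in input against 13233.7 and 13051.4 RPM in Piwi-IP, a log2 difference of 0.10. On both strands each Piwi-IP library lay above each input library. The antisense strand held 94.5% of the TE reads in both input libraries and 94.7% and 94.8% in Piwi-IP, a difference of means of 0.245 percentage points. For these single sums the exact permutation test gives its smallest p of 0.333.

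The order of the TEs hardly changed between the input and what Piwi held. Across all TEs the mean levels of input and Piwi-IP had a Spearman rho of 0.995 on the antisense strand and 0.985 on the sense strand, as a description across TEs that share libraries. The 10 most abundant TEs were the same 10 in both groups on each strand. These 10 held 71.7% of the antisense sum in input and 71.4% in Piwi-IP. On the sense strand the corresponding shares were 79.3% and 79.6%.

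The LTR elements of the gypsy group and of the mdg1 and mdg3 groups made up the bulk of the antisense TE sum in both kinds of library. The 29 errantiviruses of the gypsy group took 55.6% and 55.2% of the antisense sum in input and 56.6% and 56.6% in Piwi-IP. The 17 elements of the mdg1 and mdg3 groups, LTR retrotransposons without an envelope gene, took 37.5% and 38.0% of the antisense sum in input and 36.4% and 36.4% in Piwi-IP. Neither pair of groups overlapped, and the errantivirus share was higher by 1.2 percentage points in Piwi-IP. Non-telomeric LINEs (retrotransposons without LTRs) took 3.92% and 3.85% of the antisense sum in input and 4.00% and 4.01% in Piwi-IP. The telomeric retrotransposons, which maintain chromosome ends, took 1.39% and 1.37% of the antisense sum in input and 1.47% and 1.45% in Piwi-IP. BEL/Pao elements, a further LTR superfamily that includes roo, took 0.932% and 0.917% of the antisense sum in input and 0.848% and 0.860% in Piwi-IP. DNA transposons, foldback elements and helitrons took 0.0990% and 0.0978% of the antisense sum in input and 0.0820% and 0.0847% in Piwi-IP. This share was lower in both Piwi-IP libraries than in either input library. It includes the foldback element FB4, at 30.2 and 29.3 RPM in input and 14.2 and 13.8 RPM in Piwi-IP. It also includes FB, at 12.4 and 12.7 RPM in input and 3.32 and 4.16 RPM in Piwi-IP. Over the 7 members tested below, the median log2 difference as deposited was 0.07, against 0.16 over all TEs tested. The share without FB4 and FB was not computed.

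As deposited, most antisense TE small RNAs rose in Piwi-IP by a small and similar amount. A TE was tested on a strand where its 4 libraries averaged 10 RPM or more, which kept 74 antisense TEs and left 50 under the filter. The test was that of limma on log2(RPM + 1). At a Benjamini-Hochberg adjusted p under 0.05, 46 TEs changed (62.2% of those tested), of which 45 rose (60.8%) and 1 fell (1.35%). The median difference was 0.16 on the log2 scale, with quartiles of 0.12 and 0.23. The libraries of the groups did not overlap for 60 TEs that were higher (81.1%) and 3 that were lower (4.05%) in Piwi-IP. All 45 rises were lost when the 2 libraries from an immunoprecipitate of CG9754, a silencing factor that acts with Piwi, in the same table were added to the fit, which changes only the estimate of the spread, while the fall of FB4 remained.

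Among the errantiviruses, 20 of the 23 tested rose and none fell, against 60.8% that rose over all TEs tested, with a median log2 difference of 0.20 against 0.16 over all. The retrovirus-like element gypsy stood at 13132 and 12993 RPM in input and 15594 and 15248 RPM in Piwi-IP. Its antisense small RNAs rose in Piwi-IP (log2 difference 0.24, SE 0.0223, limma adjusted p = 6.66e-05). Antisense small RNAs of gtwin, a close relative of gypsy, were at 30356 and 29723 RPM in input and 35819.6 and 34506 RPM in Piwi-IP, and rose as well (log2 difference 0.23, SE 0.023, limma adjusted p = 9.13e-05). Both Piwi-IP libraries lay above both input libraries for gypsy and for gtwin.

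The flamenco-controlled element ZAM was at 3028 and 2802 RPM in input and 3287 and 3235 RPM in Piwi-IP and rose by a log2 difference of 0.16. Idefix, another target of flamenco, was at 9417 and 9439.8 RPM in input and 10338 and 10303 RPM in Piwi-IP and rose by 0.13. A number-named errantivirus, drawn beside gypsy in the plot of levels by library, was at 2232 and 2188 RPM in input and 2458 and 2465 RPM in Piwi-IP and rose by 0.16. These rises were of the size seen over all TEs. Rover (0.18), gypsy5 (0.19) and accord (0.25) also rose. The largest errantivirus differences among those that rose were those of gypsy3 and Tirant. The element gypsy3 was at 831 and 850.2 RPM in input and 1074 and 1020.1 RPM in Piwi-IP (log2 difference 0.32, SE 0.0433, limma adjusted p = 0.000386). Tirant was at 29.2 and 41.2 RPM in input and 47.1 and 47.9 RPM in Piwi-IP, and its input libraries differed from each other more than its Piwi-IP libraries did (log2 difference 0.44, SE 0.137, limma adjusted p = 0.0199). The 3 tested errantiviruses that did not pass were gypsy11, springer and Transpac. With no filter on level, ZAM and Tirant also did not pass in limma (adjusted p = 0.0759 and 0.164), while the other rises named with them did.

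Of the mdg1 and mdg3 groups, 7 of 13 tested rose and none fell, a share near the 60.8% over all TEs tested, with a median log2 difference of 0.14 against 0.16 over all. The most abundant TE of the table on this strand, a number-named element of the mdg1 group, was at 33926 and 34672 RPM in input and 37416 and 37341 RPM in Piwi-IP, and rose by 0.12. Antisense small RNAs of mdg1 were at 20355 and 20259.9 RPM in input and 21934 and 20897 RPM in Piwi-IP, a rise of 0.08. This rise did not pass with no filter (limma adjusted p = 0.137), while the other rises named in this group did. Stalker, Stalker2 and Stalker4 rose by 0.14, 0.16 and 0.14.

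Of the non-telomeric LINEs, 12 of 18 tested rose and none fell, a share near the 60.8% over all TEs tested, with a median log2 difference of 0.21 against 0.16 over all. Rt1b, a LINE listed with the prefix Repbase, stood at 23.2 and 21.2 RPM in input and 31.3 and 30.6 RPM in Piwi-IP. This was the largest antisense rise among the 74 TEs tested (log2 difference 0.46, SE 0.0796, limma adjusted p = 0.000987). G6 rose by 0.28, Fw3 by 0.26, Ivk by 0.25, Doc by 0.23 and the F-element by 0.18. With no filter Fw3 did not pass (limma adjusted p = 0.0811), while the others of these did. The I-element, which drives hybrid dysgenesis in the germline, was at 74.3 and 68.9 RPM in input and 83.3 and 73.9 RPM in Piwi-IP, with no call (log2 difference 0.13, SE 0.0871, limma adjusted p = 0.2). All 3 telomeric elements tested rose: TART-A by 0.22, TART-B by 0.28 and TART-C by 0.25. HeT-A, the other main telomeric retrotransposon, was under the filter, at 2.12 to 2.74 RPM in the 4 libraries.

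The other lists have few tested members, and their difference from the 60.8% that rose over all TEs was not tested. Of the BEL/Pao elements 2 of 5 tested rose, Dsim_ninja by 0.31 and diver2 by 0.25. With no filter Dsim_ninja passed and diver2 did not (limma adjusted p = 0.0427 and 0.0847). The abundant BEL/Pao element roo was at 1642 and 1599.9 RPM in input and 1649 and 1675 RPM in Piwi-IP, with a log2 difference of 0.04 that did not pass. None of the 3 copia-type elements tested rose or fell, with a median of -0.11 and a range of -0.16 to 0.12. Of the 7 DNA-type elements tested none rose and 1, FB4, fell. Their median was 0.07, with a range from -1.04 for FB4 to 0.17, so uncalled members reached the median over all TEs. Of the TEs known mainly from the germline, 7 of 13 tested rose and none fell, a share near the 60.8% over all TEs tested, with a median of 0.18 against 0.16 over all.

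**Figure D1:**
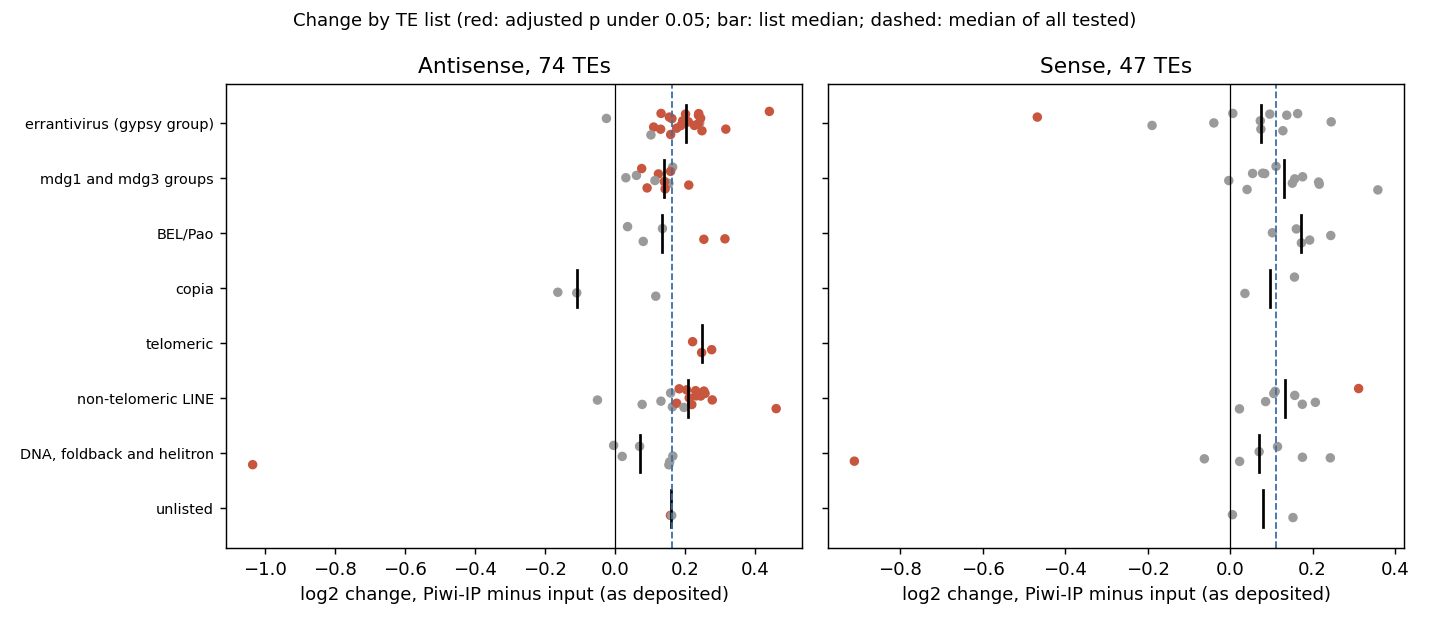
Log2 difference of each tested TE, Piwi-IP minus input as deposited (x axis), by TE list (y axis), for the antisense strand (74 TEs) and the sense strand (47 TEs). Red points have an adjusted p under 0.05, black bars are list medians and the dashed line is the median of all TEs tested; antisense points of most lists lie around 0.16, and FB4 lies alone at -1.04 on the antisense strand.

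Because the TE sum was larger in Piwi-IP, every library was then scaled to the same TE total, which moved the antisense median from 0.16 to 0.00 on the log2 scale. After rescaling, 3 antisense TEs rose (4.05% of 74) and 6 fell (8.11%). The rises were those of Rt1b, gypsy3 and gypsy, and the falls were those of FB4, copia, a number-named copia-type element, springer, roo and mdg1. The libraries did not overlap for 22 TEs that were higher (29.7%) and 18 that were lower (24.3%). Of the 45 TEs that rose as deposited, 32 had a rescaled difference above 0 and 13 below 0. The median absolute log2 difference between the group means was 0.057, against 0.034 between the input libraries and 0.056 between the Piwi-IP libraries. For 73 of 74 TEs the rescaled group means differed by under 1.3-fold, with FB4 the exception. Apart from FB4, each of these 9 calls was lost in most alternative settings: leaving out a library left 1 to 4 calls, and scaling by the median ratio in place of the TE sum left FB4 alone.

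The rescaled rises were small. Rt1b was at 24.6 and 22.5 RPM in input and 29.5 and 29.1 RPM in Piwi-IP after rescaling (log2 difference 0.30, SE 0.0846, limma adjusted p = 0.0449). The element gypsy3 was at 879.9 and 901 RPM in input and 1012 and 970.3 RPM in Piwi-IP after rescaling (log2 difference 0.15, SE 0.0446, limma adjusted p = 0.0449). Rescaled gypsy was at 13913 and 13775 RPM in input and 14689 and 14503 RPM in Piwi-IP (log2 difference 0.08, SE 0.0233, limma adjusted p = 0.0475). Its close relative gtwin was at 32161 and 31513 RPM in input and 33743 and 32820.1 RPM in Piwi-IP, with no call (log2 difference 0.06, SE 0.0221, limma adjusted p = 0.0892). In all 4 elements both Piwi-IP libraries lay above both input libraries.

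Of the antisense falls after rescaling, those of copia, the number-named copia-type element and springer belong to elements whose small RNAs were mostly sense. The antisense small RNAs of copia, an LTR retrotransposon, were at 103 and 107 RPM in input and 93.9 and 100.1 RPM in Piwi-IP as deposited and 109 and 113 RPM in input and 88.4 and 95.2 RPM in Piwi-IP after rescaling (log2 difference -0.27, SE 0.0806, limma adjusted p = 0.0449). The number-named copia-type element was at 15.6 and 13.8 RPM in input and 12.9 and 13 RPM in Piwi-IP as deposited, with a rescaled log2 difference of -0.32 and an adjusted p of 0.0449 in limma. The errantivirus springer was at 549 and 575 RPM in input and 535 and 570.3 RPM in Piwi-IP as deposited, with a rescaled log2 difference of -0.19 and an adjusted p of 0.0449 in limma. As deposited, none of the 3 passed, and the libraries of springer overlapped. Over the 14 tested TEs with more sense than antisense small RNAs in input, the rescaled antisense median was -0.05, and 10 of them lay below 0. Over the other 60 it was 0.02, and 24 lay below 0. For roo and mdg1 the rescaled differences were -0.13 and -0.09, while both differences as deposited were above 0, at 0.04 and 0.08.

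**Figure D2:**
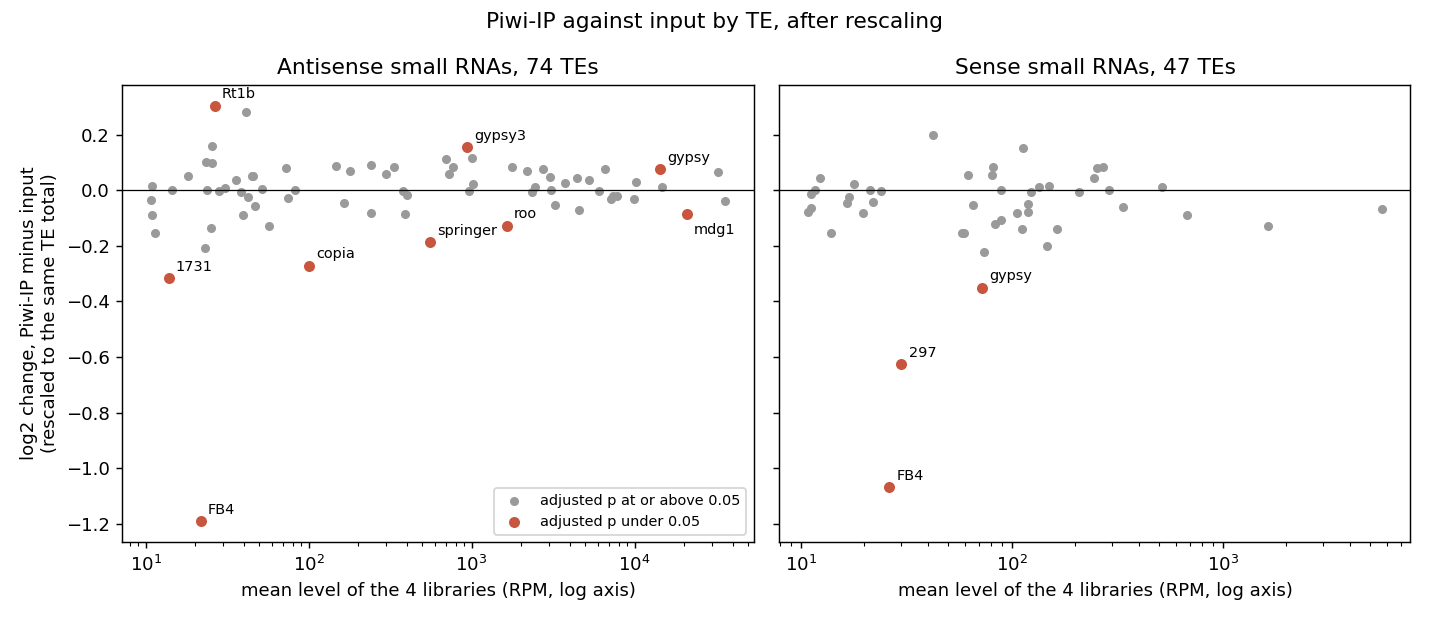
Log2 difference, Piwi-IP minus input after rescaling to the same TE total (y axis), against the mean level of the 4 libraries in RPM (x axis, log scale), for 74 antisense and 47 sense TEs; red points have an adjusted p under 0.05. Points gather around 0 at all levels, and FB4 lies lowest on both strands, at -1.19 antisense and -1.07 sense.

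The medians of abundant and of rare TEs lay close together. The rescaled antisense median was 0.00 for the 30 TEs with a mean of 10 to 100 RPM, 0.06 for the 18 TEs from 100 to 1000 RPM, 0.01 for the 20 TEs from 1000 to 10000 RPM and 0.02 for the 6 TEs above. The range narrowed with level: it ran from -1.19 to 0.30 in the lowest class and from -0.09 to 0.08 in the highest. The end at -1.19 was FB4 alone, and the next in that class was the number-named copia-type element at -0.32. A range also widens with the number of TEs, which was 30 in the lowest class and 6 in the highest.

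The foldback elements FB4 and FB, DNA elements with long terminal inverted repeats, had lower levels in both Piwi-IP libraries than in either input library on both strands. Antisense FB4 small RNAs were at 30.2 and 29.3 RPM in input and 14.2 and 13.8 RPM in Piwi-IP. They fell by 1.04 on the log2 scale in Piwi-IP (SE 0.0732, limma adjusted p = 1.25e-05), and by 1.19 after rescaling. Sense FB4 small RNAs were at 36.2 and 32.9 RPM in input and 18.9 and 17.0 RPM in Piwi-IP. They fell by 0.91 (SE 0.0933, limma adjusted p = 0.000312), and by 1.07 after rescaling. FB4 is under the alternative filter of 100 RPM and was not tested there. In the other alternatives its calls held, except in the sense values as deposited with no filter, where the adjusted p was 0.0831. Its strand ratio did not pass: log2 of sense over antisense was 0.25 and 0.16 in input and 0.38 and 0.28 in Piwi-IP.

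FB was under the filter on both strands and was chosen after its values were seen. Its antisense small RNAs were at 12.4 and 12.7 RPM in input and 3.32 and 4.16 RPM in Piwi-IP, or 234 and 194 reads in input and 50 and 52 reads in Piwi-IP. The input mean was 3.35 times the Piwi-IP mean. The reads summed over the libraries of a group were divided by the sum of their library totals. The ratio of input to Piwi-IP was then 3.38, with a 95% interval of 2.72 to 4.24 that covers counting error only. With no filter, its antisense difference passed in limma (log2 difference -1.52, adjusted p = 0.0107). Its sense small RNAs were at 9.91 and 8.35 RPM in input and 4.85 and 4.40 RPM in Piwi-IP, an input mean 1.98 times that of Piwi-IP, and did not pass with no filter (adjusted p = 0.12). Counting error alone gives its sense ratio, from summed reads scaled in this way, a 95% interval of 1.61 to 2.46.

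**Figure D3:**
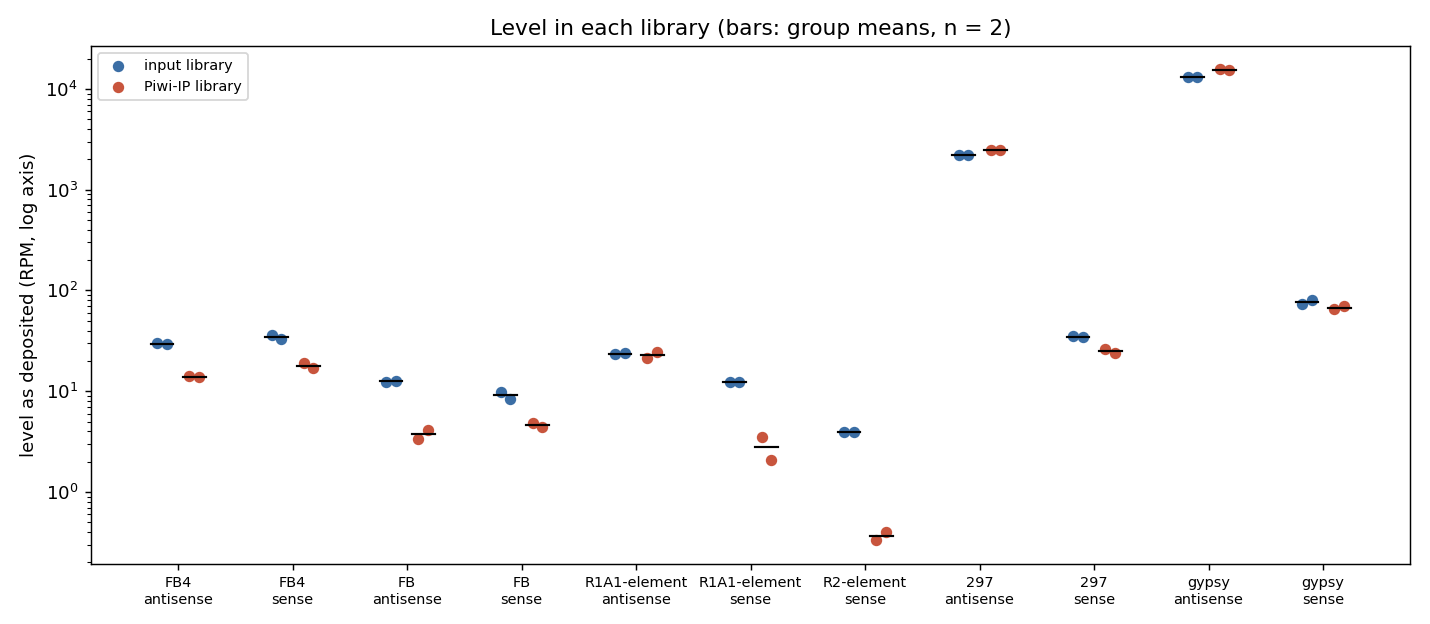
Level as deposited in each library (y axis, RPM, log scale) for 6 TEs (FB4, FB, R1A1-element, R2-element, gypsy and a number-named errantivirus) on the strand named below each pair of groups; points are libraries (blue, input; red, Piwi-IP) and bars are group means (n = 2). FB4 and FB are lower in Piwi-IP on both strands, R1A1-element and R2-element on the sense strand, while the antisense values of gypsy and the number-named errantivirus are higher and their sense values lower.

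The elements that insert into ribosomal RNA genes, R1A1-element and R2-element, had lower sense levels in both Piwi-IP libraries than in either input library. Both were under the filter on this strand. R1A1-element belongs to the fixed set of TEs named whether or not they passed, and R2-element was chosen after its values were seen. R1A1-element sense small RNAs were at 12.4 and 12.5 RPM in input and 3.52 and 2.08 RPM in Piwi-IP, or 234 and 191 reads in input and 53 and 26 reads in Piwi-IP. The input mean was 4.44 times that of Piwi-IP. The ratio of the summed reads, each sum divided by the summed library totals, was 4.34 with a 95% interval of 3.40 to 5.59. With no filter the difference did not pass in limma (adjusted p = 0.12). Antisense small RNAs of the same element were at 23.5 and 23.8 RPM in input and 21.4 and 24.3 RPM in Piwi-IP, with overlapping groups and no call (log2 difference -0.05, SE 0.0842, limma adjusted p = 0.607).

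R2-element sense small RNAs were at 3.92 and 3.91 RPM in input and 0.332 and 0.400 RPM in Piwi-IP, which correspond to 74 and 60 reads in input and 5 and 5 reads in Piwi-IP. The input mean was 10.7 times that of Piwi-IP. The ratio of the summed reads, each sum divided by the summed library totals, was 10.8 with a 95% interval of 5.69 to 23.0. With no filter this was the only sense difference as deposited that passed in limma (log2 difference -1.85, adjusted p = 0.00448). On the antisense strand R2-element had 2 and 3 reads in input and 0 in both Piwi-IP libraries, which is at or under the floor of 3 reads in each library.

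Few sense small RNAs passed the test. Of the 47 TEs tested on this strand as deposited, 1 rose (2.13%) and 2 fell (4.26%), with a median log2 difference of 0.11. The libraries did not overlap for 25 TEs that were higher (53.2%) and 3 that were lower (6.38%). The LINE Cr1a rose; it was at 103 and 97.7 RPM in input and 128 and 122 RPM in Piwi-IP (log2 difference 0.31, SE 0.0727, limma adjusted p = 0.0362). It lost the call without either input library and without Piwi-IP replicate 1. The falls were those of FB4 and the number-named errantivirus described with ZAM and Idefix. Without Piwi-IP replicate 2, 5 TEs rose and 2 fell.

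The most abundant sense small RNAs belonged to springer, copia and Transpac. Sense springer was at 5461 and 5509 RPM in input and 6002 and 5731 RPM in Piwi-IP, with no overlap between the groups but no call (log2 difference 0.10, SE 0.0326, limma adjusted p = 0.111). Sense copia was at 1579 and 1640.1 RPM in input and 1605 and 1696 RPM in Piwi-IP, a difference of 0.04. Transpac was at 660.2 and 666 RPM in input and 692 and 704 RPM in Piwi-IP, a difference of 0.07. None of the 3 passed. The gypsy-group elements gypsy12 and gypsy3, differed by 0.16 and 0.25 and did not pass.

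After rescaling, 3 sense TEs fell (6.38% of 47) and 0 rose in limma, with 8 TEs at an unadjusted p under 0.05 in either direction and a median of -0.04. The libraries did not overlap for 1 TE that was higher (2.13%) and 17 that were lower (36.2%). The falls were those of FB4, of gypsy and of the number-named errantivirus. Sense small RNAs of the latter were at 35.4 and 34.4 RPM in input and 26.2 and 23.8 RPM in Piwi-IP as deposited, where they fell by 0.47 (SE 0.085, limma adjusted p = 0.0109), and by 0.63 after rescaling (adjusted p = 2.93e-07 in limma). Sense small RNAs of gypsy were at 73.7 and 80.6 RPM in input and 65.3 and 69.8 RPM in Piwi-IP as deposited, with no call (log2 difference -0.19, SE 0.0797, limma adjusted p = 0.133). After rescaling they were at 78.1 and 85.5 RPM in input and 61.5 and 66.4 RPM in Piwi-IP and passed (log2 difference -0.35, SE 0.0918, limma adjusted p = 0.00385). In that fit limma set the spread of each TE by a trend with level fitted over the 47 TEs, with 94 degrees of freedom. The spread of a TE's own libraries had hardly any weight in its p-value. The call for gypsy was lost when any of the 4 libraries was left out, and that for the number-named errantivirus without Piwi-IP replicate 2 (adjusted p = 0.062).

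Apart from the pseudocount, the ratio of sense to antisense within a TE does not depend on the scaling of the library. It was tested as log2((sense + 1)/(antisense + 1)) in 90 TEs. In limma 2 fell (2.22%) and 0 rose, with 16 at an unadjusted p under 0.05 in either direction and a median difference of -0.05. The libraries did not overlap for 12 TEs with a higher ratio (13.3%) and 32 with a lower one (35.6%) in Piwi-IP. The ratio of R1A1-element went from -0.87 and -0.88 in input to -2.31 and -3.04 in Piwi-IP, a difference of -1.80 (SE 0.239, limma adjusted p = 0.0248). The ratio of Rt1b went from -2.41 and -2.45 to -3.17 and -3.08, a difference of -0.70 (SE 0.0951, limma adjusted p = 0.0248). Both moved further towards the antisense strand. Both calls were lost when either input library was left out, and the one for Rt1b also without either Piwi-IP library.

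Several errantiviruses with mostly antisense small RNAs had a lower ratio in Piwi-IP without passing. The difference was -0.64 for rover (adjusted p = 0.0868 in limma), -0.62 for the number-named errantivirus (0.0822), -0.62 for gypsy4 (0.0868), -0.46 for gtwin (0.166) and -0.43 for gypsy (0.166). In each of these 5 the libraries of the groups did not overlap. Sense small RNAs of rover were at 9.70 and 8.02 RPM in input and 6.44 and 5.84 RPM in Piwi-IP. Those of gypsy4 were at 6.73 and 5.61 RPM in input and 4.38 and 4.32 RPM in Piwi-IP. Sense gtwin was at 1.86 and 2.22 RPM in input and 1.93 and 1.28 RPM in Piwi-IP, near the pseudocount and with overlapping groups. Differences in the other direction were 0.67 for FB (0.0868), 0.52 for gypsy12 (0.110), 0.40 for the S-element (0.0868) and 0.32 for the number-named copia-type element (0.211), none of which passed. The ratio of copia differed by 0.15 and that of springer by 0.12.

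Over all 90 TEs the difference in the ratio was below 0, towards antisense, for 62, with a median of -0.05. Of the 64 TEs with more antisense than sense in input, 50 had moved further towards antisense in Piwi-IP, with a median difference of -0.08. Of the 26 TEs with more sense than antisense, 14 had moved further towards sense, with a median of 0.02. With a pseudocount of 0.1 the counts were 45 and 14, and with a pseudocount of 10 they were 55 and 18. The strand with fewer reads held 1.39% and 1.42% of the TE signal in input and 1.28% and 1.33% in Piwi-IP, summed over all TEs.

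**Figure D4:**
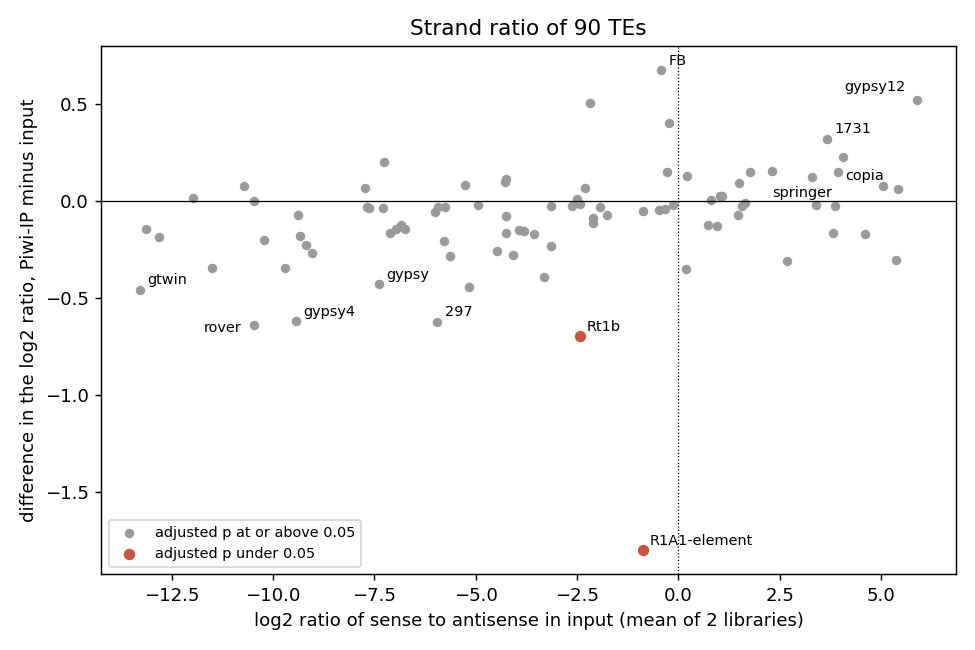
Difference in log2((sense + 1)/(antisense + 1)), Piwi-IP minus input (y axis), against the mean ratio in the 2 input libraries (x axis), for 90 TEs; red points have an adjusted p under 0.05. TEs left of the dotted line, which are richer in antisense, lie mostly below 0, with R1A1-element at -1.80, and gypsy12 and FB lie highest at 0.52 and 0.67.

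The TEs under the filter added little signal. On the antisense strand these were 50 TEs, of which 12 had means under 1 RPM and 2 were at 0 in all 4 libraries. Their summed level was 163 RPM in input and 167 RPM in Piwi-IP. On the sense strand 77 TEs were under the filter, 24 of them with means under 1 RPM and 4 at 0 in all 4 libraries, with sums of 204 and 193 RPM. When no filter was used, 3 of the 50 passed on the antisense strand as deposited, 2 higher and FB lower, and 1 of the 77, R2-element, on the sense strand. Among TEs under the filter, 6 antisense and 11 sense TEs were lower in Piwi-IP without overlap. Higher without overlap were 19 antisense and 17 sense TEs. Besides FB4, FB and R2-element, the telomeric retrotransposon TAHRE was the only TE whose libraries lay lower in Piwi-IP without overlap on both strands. Its antisense level was 1.17 and 1.57 RPM in input and 0.863 and 0.800 RPM in Piwi-IP. Its sense level was 4.98 and 5.55 RPM in input and 4.78 and 4.56 RPM in Piwi-IP, and both were under the filter. Antisense TAHRE had 22 and 24 reads in input and 13 and 10 reads in Piwi-IP. With each sum divided by the summed library totals, the ratio of its summed antisense reads had an interval of 0.957 to 2.79. That interval is for counting error only and includes no change. With no filter TAHRE passed on neither strand (limma adjusted p = 0.0759 antisense and 0.483 sense). The antisense values of R2-element were at or under the floor of 3 reads.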

How the data were processed

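The authors deposited a table of small RNA levels per TE on the sense and antisense strand, under headings without a unit. The deposited levels were taken as RPM: the values of a library were all whole multiples of what 1 read is worth (within 0.02 reads), which also gives the library total. Per the submitters' processing notes, the build dm3 was used with bedtools 2.16.1, SAMtools 0.1.16, Bowtie 0.12.7 and cutadapt 1.0, in roles that are not stated. The aligner settings and size range are not given in the sources used here.

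Groups were taken from the titles. Piwi-IP was compared with input with limma 3.58.1 in R 4.3.3 (lmFit, eBayes with trend) on log2(RPM + 1) in the 4 libraries, with a filter of mean 10 RPM and Benjamini-Hochberg adjustment over the TEs tested on a strand, two-sided at 0.05. Differences are on the log2(RPM + 1) scale, which understates the change of low TEs. Rescaled values have the TE sum of each library set to the mean of the 4. The intervals and floors reflect counting error alone, because PCR copies of a molecule cannot be told apart without molecular identifiers.

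The comparison, the TE lists and the tests were chosen with earlier results of these data known. The lists follow textbook classes, and 6 TEs are in no class. Named TEs are the 10 largest rises and falls that passed without overlap, the 10 most abundant in input per strand, and a fixed set (gypsy, ZAM, gtwin, Idefix, mdg1, roo, copia, springer, I-element, HeT-A, FB4, R1A1-element and 2 number-named elements); list members beyond these were named after their values were seen. Alternatives were other filters, pseudocounts and scalings, a replicate block, no trend, both strands in 1 fit, the CG9754-IP libraries added, and each library left out.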

Additional observations from a re-analysis of the deposited data

How the results depend on the processing

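Depth and 2 libraries per group limit all calls. With only TEs of at least 10 RPM, the sums, the antisense percentage and the errantivirus share of antisense moved by less than the replicate SD. Leaving out 1 of 2 libraries cannot move a group mean by more than the SD of its group, so those alternatives could not show a larger move. The other list shares were not run in alternatives. The antisense count as deposited, 46, was 31 to 46 without 1 library and 1 with the CG9754-IP libraries added. The sense count as deposited, 3, was 1 with no filter, 0 with a filter of 100 RPM (9 at an unadjusted p under 0.05 in limma), 1 with CG9754-IP added, 9 with both strands in 1 fit and 2 to 7 without 1 library. The rescaled antisense count, 9, was 2 with no filter, 5 with a filter of 100 RPM, 1 without trend, 1 with CG9754-IP added, 1 with median-ratio scaling and 1 to 4 without 1 library. The rescaled sense count, 3, was 0 with a filter of 100 RPM (2 at an unadjusted p under 0.05 in limma) and 1 to 2 without 1 library. The strand ratio count, 2, was 1 with no filter, 0 with a filter of 100 RPM (10 at an unadjusted p under 0.05 in limma), 0 with a pseudocount of 0.1 (13), 12 with a pseudocount of 10, 0 with CG9754-IP added (12) and 0 to 2 without 1 library. Except where fewer TEs or libraries entered, the cause was not tested.

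With the replicate number as a block, the counts were 35 and 2 as deposited (antisense, sense), 4 and 3 rescaled and 14 for the strand ratio. The labels do not say that a number marks a shared batch; the replicate 1 deviations of the groups correlated at 0.00942 over 74 antisense TEs and 0.257 over 47 sense TEs. Count-model tests, also planned, were not run.

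Of the values of named TEs, 905 kept their direction and side of the threshold, 147 lost the call, 18 gained it and 30 changed sign, all of these uncalled. Without 1 library, differences as deposited ran from -0.0705 to 0.0215 for antisense springer, -0.14 to 0.0394 for antisense R1A1-element and -0.00339 to 0.0755 for sense copia. Rescaled antisense differences ran from -0.0557 to 0.0551 for ZAM, -0.0214 to 0.00624 for the number-named errantivirus, -0.108 to 0.0491 for I-element, -0.0513 to 0.00709 for Stalker4 and -0.0232 to 0.0493 for rover. Rescaled sense differences ran from -0.0451 to 0.0480 for gypsy12, -0.0246 to 0.114 for Doc, -0.0280 to 0.0297 for mdg1, -0.0386 to 0.0265 for the number-named copia-type element, -0.0497 to 0.211 for DNAREP1 and -0.0207 to 0.0472 for Circe; with median-ratio scaling those of gypsy12 and mdg1 were -0.0101 and -0.00980. Strand ratio differences ran from -0.0924 to 0.0939 for ZAM, -0.175 to 0.200 for Idefix and -0.169 to 0.0167 for I-element; with a pseudocount of 10 those of ZAM and Idefix were -0.131 and -0.0984.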
